A study of Mus musculus with 6 samples.

Results

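The genes of the proteasome were followed in platelet RNA of mice with a normal bone marrow graft and of mice at the pre-leukemic (pre-AML) stage. Members were chosen by symbol alone, as every row of the deposited table that begins with Psma, Psmb, Psmc, Psmd, Psme, Psmf or Psmg and a digit, without pseudogene symbols. There were 50 such genes of 14975. By the known place of their proteins they were 8 alpha subunits and 7 constitutive beta subunits of the 20S core, 3 immunoproteasome beta subunits, 6 ATPases and 11 other subunits of the 19S regulatory particle, 6 activators or inhibitors, 7 assembly chaperones, and 2 genes that match the symbol but encode no subunit.

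The proteasome is the protease that destroys proteins tagged with ubiquitin. Its barrel-shaped 20S core holds the cutting sites on beta subunits and the gate on alpha subunits, and the 19S particle binds ubiquitin, removes it, and unfolds and feeds the substrate. In immune cells and under interferon gamma, the catalytic beta subunits are replaced by the immunoproteasome forms, which favor peptides for MHC class I. Platelets have no nucleus, so their RNA is mostly what the megakaryocyte gave them, and they contain working proteasomes.

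Peripheral blood platelets of C57BL/6 mice were sequenced in 6 libraries. The 3 control libraries carry the genotype label WT and the 3 pre-AML libraries the label AML. Recipients (C57BL/6 or congenic CD45.1) were female, 8 to 12 weeks old and irradiated, sub-lethally before leukemic cells, and received either normal bone marrow (BMT control) or MLL-AF9-transformed hematopoietic cells in a secondary transplantation. The MLL-AF9 fusion is an oncogene that was delivered by a GFP-marked retrovirus, and platelets were taken 1 week after the transplantation, a time that the labels do not give. Platelets were depleted of CD45+ and Ter119+ cells. The methods describe 3 mice per group, while the labels mention 2 replicates and pools of 3 to 4 mice, so p-values measure the spread between these libraries, which may be technical in part. Fewer cells of a type and less RNA per cell cannot be told apart in such bulk samples.

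Values are FPKM, fragments per kilobase of gene scaled to library size, and between 11935973 and 17778892 reads per library could be recovered from them on the listed genes. For a gene of 1 kb, 3 reads corresponded to 0.129 to 0.256 FPKM. All 10 platelet markers were at 1 FPKM or more in all 6 libraries. Pre-AML 3 stood apart. Its mean Spearman correlation with the other libraries across genes was 0.858, against 0.942 to 0.95 for the others, and its summed platelet marker level was the lowest, at 60838 FPKM against 88976 to 113009 FPKM. Of 10 monocyte and macrophage markers, 9 reached 1 FPKM in pre-AML 3, 2 in pre-AML 2 and 1 in each of the other libraries. Summed B cell markers came to 0.547 to 0.977 FPKM in the controls and to 0.363, 6.09 and 83 FPKM in pre-AML 1, 2 and 3. The library size behind the deposited values was also 1.31 times the recovered reads in pre-AML 3 and 0.983 to 1.01 times in the others. The FPKM of pre-AML 3, its platelet marker sum included, are thus scaled down relative to its reads. That sum is mostly Pf4 and Ppbp, both lowest in pre-AML 3, as were Itgb3, Gp1ba, Gp6 and Treml1. Itga2b, Gp9, Gp1bb and Tubb1 of pre-AML 3 lay inside the range of the other libraries. The Spearman correlation across genes of a library's deviation from the mean with GC content was 0.489 in pre-AML 3 and -0.401 to 0.315 in the others. Results that rest on pre-AML 3 are given with and without it.

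No member differed between control and pre-AML platelets past the threshold. Among the 41 members with a mean of at least 1 FPKM, 0 had an adjusted p under 0.05 in limma-trend with Benjamini-Hochberg adjustment over all 4412 genes tested, where 1 gene was called higher (0.0227% of genes) and 0 were called lower (0%). At an unadjusted p under 0.05 the immunoproteasome subunits Psmb8 and Psmb10 were higher and the 19S subunit Psmd6 was lower. The background was 2.56% of all tested genes for higher and 6.53% for lower values. The log2 fold change of pre-AML over control, on the scale of log2(FPKM + 1), was above 0 for 22 members and below 0 for 19, against 41.5% of all tested genes above 0. Its median was 0.01 over the members and -0.06 over all tested genes. Without pre-AML 3, 18 members were above and 23 below 0, against 46.2% of all tested genes above 0, and the medians were -0.05 and -0.02, so that their order turned. This scale understates the change of genes near or below 1 FPKM.

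**Figure D1:**
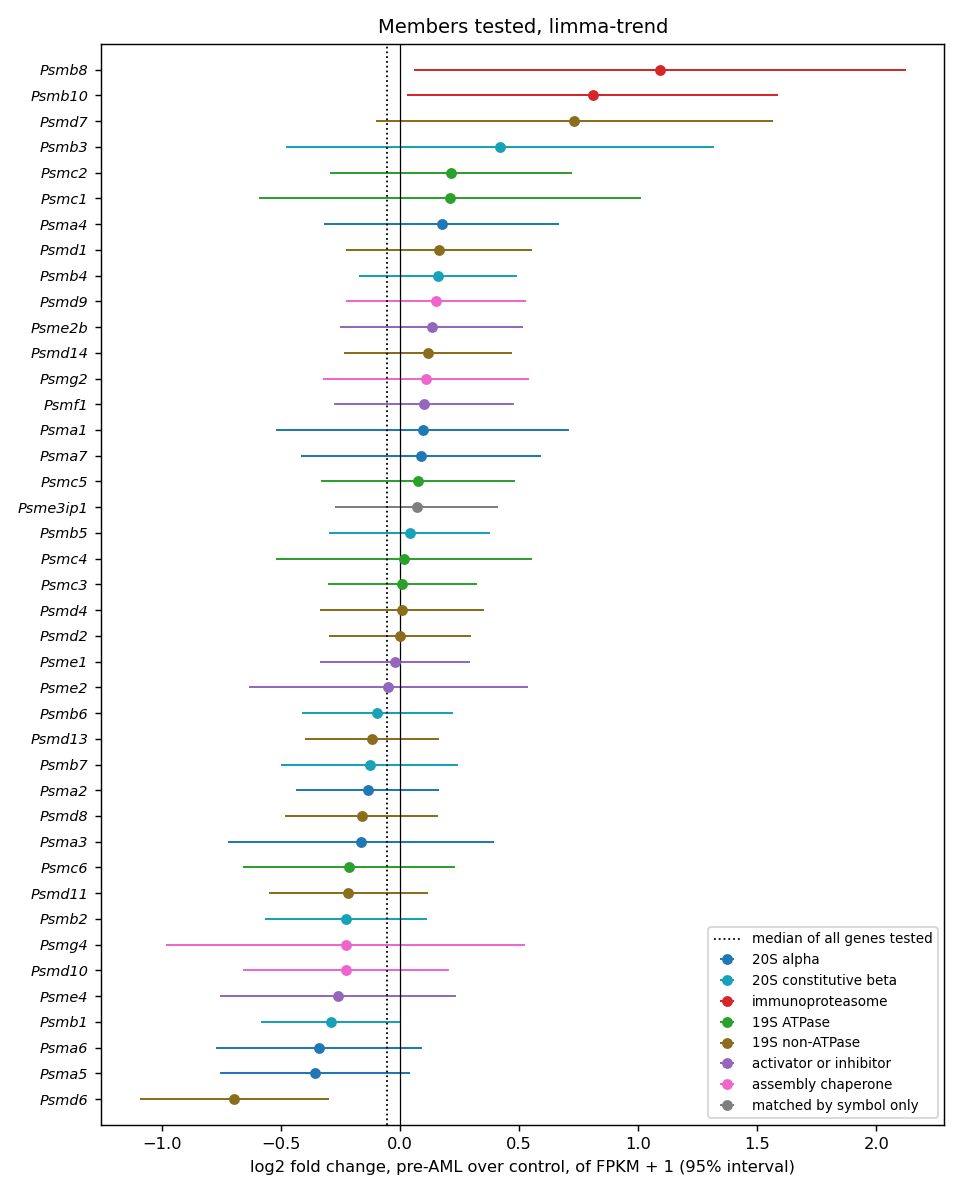
Log2 fold changes (pre-AML over control, of FPKM + 1) of the 41 tested members with their 95% intervals from limma-trend, colored by class, with the median of all tested genes as a dotted line. Most intervals span 0, with Psmb8 and Psmb10 above it (1.09 and 0.81) and Psmd6 below it (-0.70).

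Transcripts of the 20S core and the 19S particle, whose subunits stand at 1 copy per ring or particle in the protein complex, differed widely in FPKM. FPKM divide by gene length, and the union of exons can exceed the longest coding transcript. For Psmb3 these lengths were 2300 and 766 bases, and for Psmb5 both were 899 bases. The part of assigned length in the spread and in the order of genes was not tested. Of the 31 constitutive subunits other than the testis form Psma8, the highest level exceeded the lowest by 77.4-fold, 77.4-fold and 244-fold in control 1, 2 and 3 and by 92.9-fold, 69.1-fold and 44.8-fold in pre-AML 1, 2 and 3. The SD of log2 FPKM over these 31 subunits was 1.95, 1.82 and 2.05 in the controls and 1.90, 1.91 and 1.53 in pre-AML. The levels in pre-AML 3 were the most even by both measures, and by the SD the other pre-AML libraries lay within the control range.

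In the controls the 20S subunits were ordered from Psmb5 at 36.8 ± 4.64 FPKM (SD, n = 3) and Psmb2 at 36.1 ± 4.41 FPKM (SD, n = 3), over Psma6, Psmb4, Psma5, Psma2, Psmb1, Psma3, Psmb6, Psma7, Psma1, Psma4 and Psmb7, to Psmb3 at 1.7 ± 0.779 FPKM (SD, n = 3). Of the 13 neighbouring pairs in this order, 5 did not overlap between the control libraries. They were Psmb2 and Psma6, Psma5 and Psma2, Psma2 and Psmb1, Psma7 and Psma1, and Psma1 and Psma4. The 19S order ran from Psmd4 at 41.8 ± 6.04 FPKM (SD, n = 3), over Psmd11, Psmc3, Psmd8, Psmd13, Psmd2, Psmc5, Psmc4, Psmd14, Psmd6, Psmd1, Psmc1, Psmc6, Psmc2, Psmd7 and Psmd12, to Psmd3 at 0.581 ± 0.393 FPKM (SD, n = 3), and 5 of its 16 neighbouring pairs did not overlap. Among the 19S genes matched by symbol, the ubiquitin receptor Psmd4 was thus the most abundant in the controls and Psmd3, a lid subunit, the lowest.

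**Figure D2:**
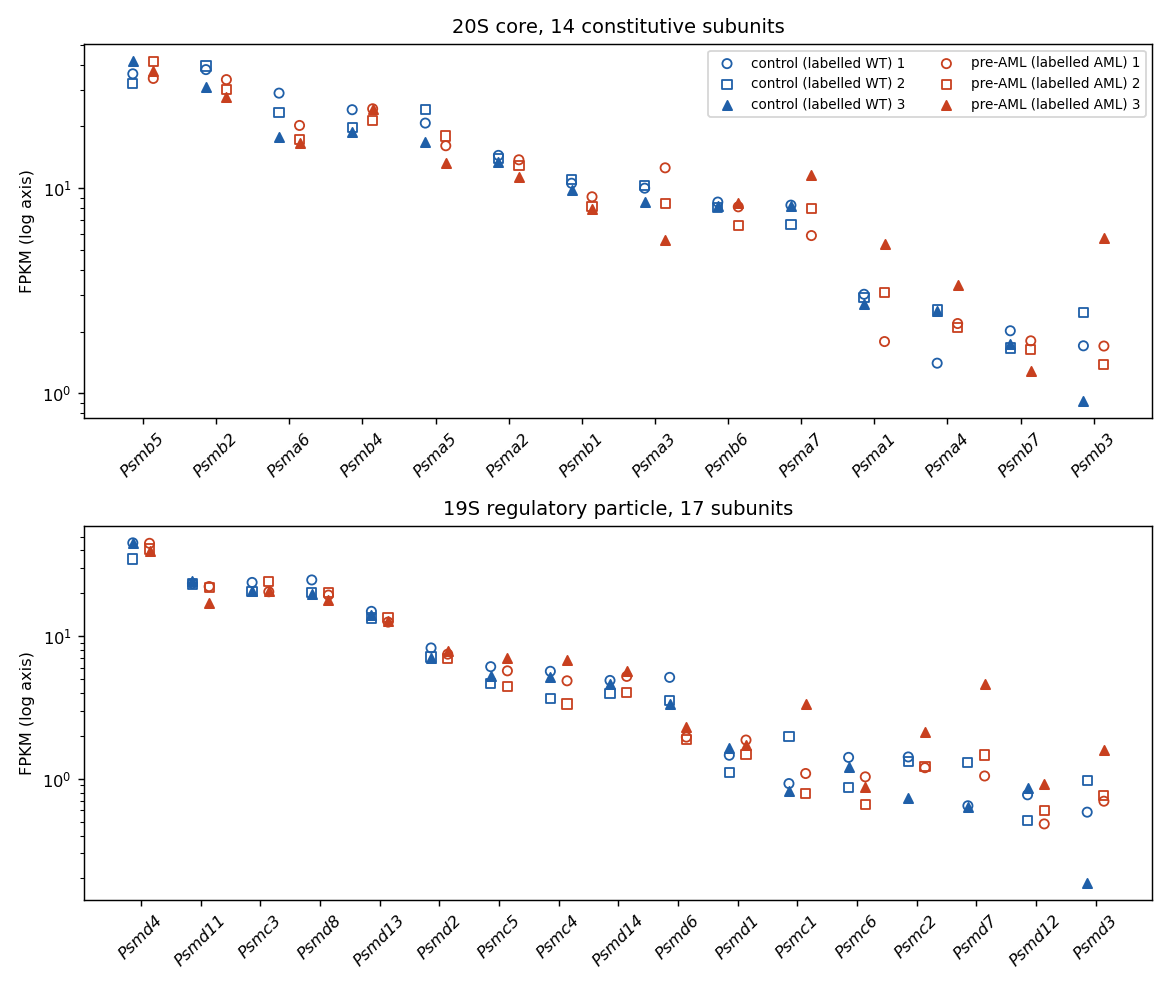
FPKM (log axis) of the 14 constitutive 20S subunits (top) and the 17 19S subunits (bottom) in each library, ordered by the control mean, with controls in blue and pre-AML in red and pre-AML 3 as red triangles. The order is largely shared by the libraries, Psmd6 lies lower in all 3 pre-AML libraries, and pre-AML 3 lies above the others for subunits of low level such as Psmb3, Psmc1 and Psmd7.

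The summed level of the 31 subunits was 377, 342 and 338.4 FPKM in control 1, 2 and 3 and 337.9, 329 and 333 FPKM in pre-AML 1, 2 and 3. Every pre-AML library was below every control by this sum, with a gap between 338.4 and 337.9 FPKM that is small beside the spread of the controls. The direction depended on the scaling in pre-AML 3. Per recovered read the sum was 336 to 371 in the controls, 332 and 333 in pre-AML 1 and 2 and 437 in pre-AML 3, and on the TPM scale, which gives each library the same total, it was 656 to 697, 635, 647 and 885.

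Of the alpha subunits, which form the outer rings and the gate of the 20S core, 7 of 8 were tested, with a median log2 fold change of -0.14. Over the alternatives this median ranged from -0.19 to 0.11, and it was above 0 on the TPM scale (0.024) and after removal of trends with GC content and length (0.11). The lowest fold changes belonged to Psma5 and Psma6. Psma6 (alpha1), the most abundant alpha subunit, had 29.1, 23.3 and 17.8 FPKM in control 1, 2 and 3 and 20.2, 17.2 and 16.5 FPKM in pre-AML 1, 2 and 3. Psma5 (alpha5) had 20.8, 24.2 and 16.9 FPKM in control 1, 2 and 3 and 16.1, 18 and 13.3 FPKM in pre-AML 1, 2 and 3. The groups overlapped for both, with pre-AML libraries in the lower part of the range. Their log2 fold changes were -0.34 (SE 0.19) and -0.36 (SE 0.18), and limma-trend with Benjamini-Hochberg adjustment gave adjusted p = 0.530 and 0.522. Psma5 has processed pseudogenes of near-identical sequence, so its read assignment is uncertain.

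The other alpha subunits Psma1, Psma2, Psma3, Psma4 and Psma7 had log2 fold changes between -0.16 and 0.17 and overlapping groups. Psma1 and Psma7 (alpha6 and alpha4) were highest in pre-AML 3, at 5.32 and 11.6 FPKM, which was 1.96 and 1.58 times the mean of the other 5 libraries. Psma3 (alpha7) was lowest there, at 5.60 FPKM, 0.562 times that mean. Psma8, the form of alpha4 used in testis, was listed at 0 FPKM in 4 libraries and rested on 2 reads each in pre-AML 2 and 3. A count of 0 allows up to 3 reads, and this floor covers counting error only.

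The 7 constitutive beta subunits had a median log2 fold change of -0.10, which was 0.06 on the TPM scale and 0.02 after rescaling to recovered reads. The subunits with the 3 cutting activities differed widely in level. Psmb5 (beta5), the chymotrypsin-like subunit and the target of bortezomib, had 36.1, 32.5 and 41.7 FPKM in control 1, 2 and 3 and 34.3, 41.5 and 37.4 FPKM in pre-AML 1, 2 and 3. Psmb6 (beta1), the caspase-like subunit, had 8.56, 8.05 and 8.17 FPKM in control 1, 2 and 3 and 8.11, 6.55 and 8.45 FPKM in pre-AML 1, 2 and 3. Psmb7 (beta2), the trypsin-like subunit, had 2.02, 1.66 and 1.74 FPKM in control 1, 2 and 3 and 1.8, 1.63 and 1.29 FPKM in pre-AML 1, 2 and 3. Controls and pre-AML overlapped for each of these. Their log2 fold changes were 0.04 (95% interval -0.30 to 0.38), -0.10 (-0.41 to 0.22) and -0.13 (-0.50 to 0.24). No adjusted p was under 0.05, and changes within these intervals are not excluded. A processed pseudogene nearly identical to Psmb5 makes the assignment of its reads uncertain.

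Among the structural beta subunits, Psmb1 and Psmb3 stood at the ends. Psmb1 (beta6) had 10.6, 11 and 9.77 FPKM in control 1, 2 and 3 and 9.08, 8.11 and 7.92 FPKM in pre-AML 1, 2 and 3. All pre-AML libraries were below all controls, as for 12.8% of all tested genes, but the groups overlapped on the TPM scale and per recovered read. The log2 fold change of Psmb1 was -0.29 (SE 0.13), with limma-trend, Benjamini-Hochberg adjusted p = 0.522. Psmb3 (beta3) had 1.7, 2.47 and 0.913 FPKM in control 1, 2 and 3 and 1.7, 1.38 and 5.7 FPKM in pre-AML 1, 2 and 3. Pre-AML 3 was above all other libraries, while pre-AML 1 and 2 lay within the control range. Its log2 fold change of 0.42 (SE 0.39) turned to -0.05 without pre-AML 3, and several pseudogenes share its sequence. Psmb2 and Psmb4 had log2 fold changes of -0.23 and 0.16 with overlapping groups.

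The 3 immunoproteasome subunits were low in platelets, and the tested ones, Psmb8 and Psmb10, had the highest fold changes of the 41 tested members, both smaller without pre-AML 3. Psmb8 (beta5i), on chromosome 17 from 34197721 to 34201454 in the MHC region of GRCm38, had 0.882, 1.47 and 0.671 FPKM in control 1, 2 and 3 and 1.36, 2.39 and 8.42 FPKM in pre-AML 1, 2 and 3. These values rested on 35, 70 and 27 reads in the controls and 61, 122 and 664 reads in pre-AML. Pre-AML 3 was far above the rest and pre-AML 2 above all controls, while pre-AML 1 lay within the control range. Psmb10 (beta2i), on chromosome 8 from 105935735 to 105938444, had 1.25, 1.33 and 0.493 FPKM in control 1, 2 and 3 and 1.59, 1.71 and 5.0 FPKM in pre-AML 1, 2 and 3, from 25, 32 and 10 reads in the controls and 36, 44 and 199 reads in pre-AML. Every pre-AML library was above every control for Psmb10, the single member of the 41 tested with this pattern, which 6.14% of all tested genes showed. On the TPM scale Psme2b and Psmd9 showed it too, with 11.4% of all tested genes. Psmb9 (beta1i), on chromosome 17 from 34181987 to 34187764, had 0.256, 0.408 and 0.115 FPKM in control 1, 2 and 3 and 0.349, 0.38 and 1.73 FPKM in pre-AML 1, 2 and 3. It was high in pre-AML 3, and pre-AML 1 and 2 lay within the control range, at 5 to 21 reads in these 5 libraries.

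For Psmb8 the log2 fold change was 1.09 (SE 0.45, 95% interval 0.06 to 2.13), with an adjusted p = 0.522 in limma-trend with Benjamini-Hochberg adjustment. That of Psmb10 was 0.81 (SE 0.34, interval 0.03 to 1.59, limma-trend, Benjamini-Hochberg adjusted p = 0.522). Without pre-AML 3 the value of Psmb8 was 0.51 and that of Psmb10 was 0.41, with Benjamini-Hochberg adjusted p = 0.580 and adjusted p = 0.632 in limma-trend. Psmb9 was under the filter, and with no filter on low values its log2 fold change was 0.46 (limma-trend, Benjamini-Hochberg adjusted p = 0.705). The median of the tested pair of immunoproteasome subunits was 0.95, and 0.46 without pre-AML 3.

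The immunoproteasome transcripts were also set against the constitutive subunit that each replaces, within each library. Psmb8 made up 2.38%, 4.33% and 1.58% of the summed FPKM of Psmb8 and Psmb5 in control 1, 2 and 3 and 3.81%, 5.45% and 18.4% in pre-AML 1, 2 and 3. Psmb9 made up 2.91%, 4.82% and 1.39% of its pair with Psmb6 in the controls and 4.13%, 5.49% and 17% in pre-AML. The share of Psmb10 in its pair with Psmb7 was 38.2%, 44.5% and 22% in the controls and 46.8%, 51.2% and 79.5% in pre-AML. Control 3 had the lowest and pre-AML 3 the highest share for each pair. The groups overlapped for Psmb8 and Psmb9 and did not for Psmb10. These shares depend on assigned gene length, 1705 bases for Psmb10 and 3421 for Psmb7, and 3381 for Psmb8 and 899 for Psmb5. In recovered reads Psmb10 was below Psmb7 in every library but pre-AML 3, with 25 and 81 reads in control 1 and 199 and 103 in pre-AML 3. Psmb8 and Psmb5 had 35 and 381 reads in control 1 and 664 and 785 in pre-AML 3. Psmb5 and Psmb6 of pre-AML 3 lay within the range of the other libraries, and Psmb7 was lowest there.

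**Figure D3:**
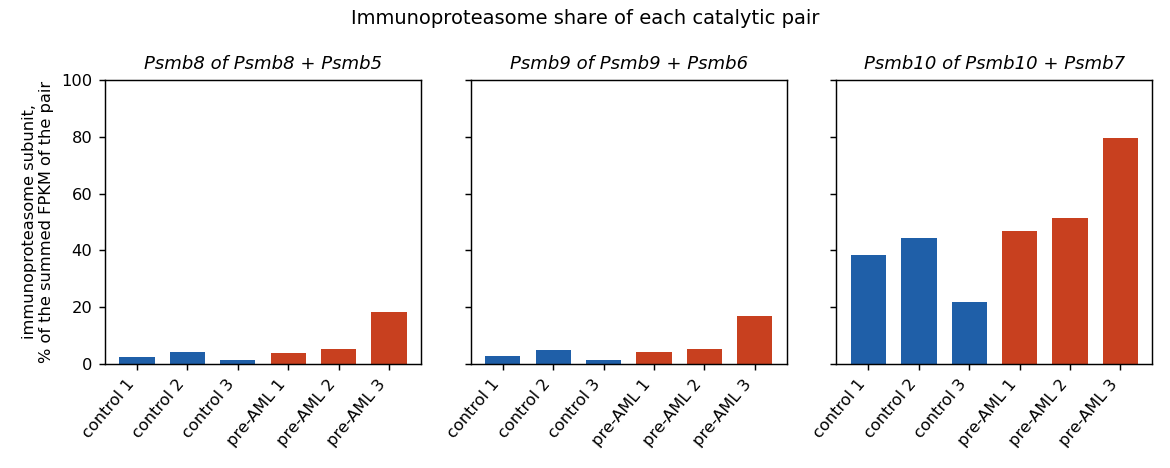
Share of the immunoproteasome subunit in the summed FPKM of each catalytic pair, in percent, with 1 bar per library (controls blue, pre-AML red). Shares of Psmb8 and Psmb9 reach at most 5.49% outside pre-AML 3, where they are 18.4% and 17%, and the Psmb10 share is 22% to 44.5% in the controls and 46.8% to 79.5% in pre-AML.

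Some leukocyte transcripts were also highest in pre-AML 3. Tyrobp, placed in the pan-leukocyte list, had 0.128, 0.533 and 0.126 FPKM in control 1, 2 and 3 and 4.85, 4.37 and 153 FPKM in pre-AML 1, 2 and 3. Cd74, the invariant chain of MHC class II and in the same list, had 1.37, 1.48 and 0.751 FPKM in control 1, 2 and 3 and 0.671, 15.2 and 168 FPKM in pre-AML 1, 2 and 3. The library with the highest Psmb8, Psmb9 and Psmb10 also had the highest level of both genes and of the B cell list. In pre-AML 1, where Psmb10 was above every control, Tyrobp was above and Cd74 below every control. Of the other genes in the pan-leukocyte list, Ptprc was highest in pre-AML 3 at 1.57 FPKM, Coro1a was highest there at 28.8 FPKM with pre-AML 1 and 2 inside the control range, and Laptm5 in pre-AML 3, at 737 FPKM, lay inside the control range of 729 to 750.1 FPKM. Of the 5 genes in the pan-leukocyte list, 2 or 3 reached 1 FPKM in the controls, and 3, 4 and 5 in pre-AML 1, 2 and 3, with summed levels of 741 to 759 and of 805, 897 and 1088 FPKM. Summed T and NK cell markers were 19.1 to 28.6 FPKM in the controls and 34.0 to 38.2 FPKM in pre-AML. Most of this was Nkg7, whose own groups overlapped, as did those of Cd3e, Cd3d and Cd4. Gzma had 0 to 0.353 FPKM in the controls and 4.61 to 8.90 FPKM in pre-AML. Ncr1, Prf1, Klrb1c, Cd3g and Lck, at lower levels and untested, were also above every control in each pre-AML library. Of all tested genes 6.14% showed this pattern. The monocyte and macrophage list summed to 2385 to 2616 FPKM in the controls and 2337 to 3202 FPKM in pre-AML, most of it Lyz2, and 3 to 6 of its 10 genes were at 0 in each control, 3 in pre-AML 1 and 0 in pre-AML 2 and 3. Neutrophil markers were 2.08 to 2.98 and 1.0 to 3.36 FPKM and erythroid markers 2350 to 2652 and 2377 to 2991 FPKM. The part of RNA from other cells in the immunoproteasome values was not tested.

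To show where the catalytic pairs differ in sequence upstream, promoters of the beta5 and beta1 pairs are printed, from RefSeq on GRCm38.p6, as 250 bases before and 50 bases from the transcription start, 5′ to 3′ on the strand of the gene. The searched motifs were TGACNNNGC, the core of the antioxidant response element that NRF1 and NRF2 bind, the core of the interferon-stimulated response element, TTCNNNGAA, the gamma-activated site, and CCAAT, the NF-Y box. Capitals mark a match on either strand, and no matches overlap in these windows. The windows are chr14:54617946-54618245 (minus strand) for Psmb5, chr17:34197945-34198244 (plus strand) for Psmb8, chr11:70525107-70525406 (plus strand) for Psmb6 and chr17:34187281-34187580 (minus strand) for Psmb9.
Psmb5: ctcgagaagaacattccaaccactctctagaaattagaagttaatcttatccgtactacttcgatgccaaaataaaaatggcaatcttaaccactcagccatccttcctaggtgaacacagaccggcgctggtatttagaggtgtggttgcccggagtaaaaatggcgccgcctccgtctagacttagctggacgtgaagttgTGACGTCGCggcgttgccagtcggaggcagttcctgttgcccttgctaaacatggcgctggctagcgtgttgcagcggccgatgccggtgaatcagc
Psmb8: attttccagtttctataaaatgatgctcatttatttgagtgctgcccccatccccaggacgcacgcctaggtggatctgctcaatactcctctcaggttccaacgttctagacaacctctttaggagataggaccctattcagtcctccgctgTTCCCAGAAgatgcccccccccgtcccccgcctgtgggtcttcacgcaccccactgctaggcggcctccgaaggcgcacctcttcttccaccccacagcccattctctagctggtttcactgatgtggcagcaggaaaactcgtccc
Psmb6: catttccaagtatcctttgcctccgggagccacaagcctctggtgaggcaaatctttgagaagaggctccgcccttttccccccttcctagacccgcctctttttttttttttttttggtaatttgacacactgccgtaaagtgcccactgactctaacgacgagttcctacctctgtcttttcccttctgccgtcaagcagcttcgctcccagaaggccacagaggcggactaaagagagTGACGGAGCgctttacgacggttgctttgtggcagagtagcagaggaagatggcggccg
Psmb9: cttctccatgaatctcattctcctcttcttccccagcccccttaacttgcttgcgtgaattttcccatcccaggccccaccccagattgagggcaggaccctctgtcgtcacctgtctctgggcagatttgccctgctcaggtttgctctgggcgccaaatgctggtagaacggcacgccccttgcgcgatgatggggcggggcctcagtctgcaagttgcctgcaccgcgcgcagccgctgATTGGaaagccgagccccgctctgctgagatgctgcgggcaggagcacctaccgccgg

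Both constitutive promoters hold an antioxidant response element core, TGACGTCGC beginning 47 bases before the start of Psmb5 and TGACGGAGC beginning 9 bases before that of Psmb6. The Psmb8 window holds the gamma-activated site TTCCCAGAA from 97 bases before the start, and the Psmb9 window holds the NF-Y box on the opposite strand, read as ATTGG, from 8 bases before it. Of all 32851 RefSeq promoter windows of this length (and of 27025 genes with a window), 12.4% (14%) hold TGACNNNGC, 3.44% (3.99%) the interferon-stimulated response element core, 8.3% (9.55%) TTCNNNGAA and 37.4% (41.1%) CCAAT. Among the 42 member genes with a window, 6, 5, 3 and 15 held these motifs. The Psmb10 window held none of them. The NF-Y box was present in 5 of the 7 alpha subunits with a window, namely Psma1, Psma2, Psma3, Psma6 and Psma7. The Psmb8 and Psmb9 windows lie inside the gene bounds given above, so sequence upstream of those bounds was not searched. A match describes the letters of the window and says nothing of binding.

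The 6 ATPases, the ring of motors that unfolds substrates at the base of the 19S particle, had overlapping groups and no adjusted p under 0.05. Their median log2 fold change was 0.05, with a range of -0.18 to 0.23 over the alternatives and -0.12 without pre-AML 3. Values were above 0 for 5 of 6, and for 2 of 6 (Psmc2 and Psmc3) without pre-AML 3, where 41.5% and 46.2% of all tested genes were above 0. Psmc3 (Rpt5), the most abundant, had 23.8, 20.6 and 20.7 FPKM in control 1, 2 and 3 and 20.5, 24.2 and 20.8 FPKM in pre-AML 1, 2 and 3. Psmc2 (Rpt1) had 1.42, 1.33 and 0.735 FPKM in control 1, 2 and 3 and 1.2, 1.23 and 2.13 FPKM in pre-AML 1, 2 and 3, and Psmc6 (Rpt4), the lowest in the mean over all 6 libraries, had 1.41, 0.874 and 1.2 FPKM in control 1, 2 and 3 and 1.03, 0.663 and 0.882 FPKM in pre-AML 1, 2 and 3. Pre-AML 3 was highest for Psmc2, and pre-AML 2 was highest for Psmc3 and lowest for Psmc6. For Psmc3 the log2 fold change was 0.01 (95% interval -0.30 to 0.32), that of Psmc2 was 0.21 (-0.29 to 0.72) and that of Psmc6 was -0.22 (-0.66 to 0.23). Psmc1, Psmc4 and Psmc5 lay between 0.02 and 0.21, with Psmc1 (Rpt2) at 3.35 FPKM in pre-AML 3 and 0.789 to 1.99 FPKM elsewhere. Psmc1 has a processed pseudogene of near-identical sequence.

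Of the non-ATPase subunits of the 19S particle, 9 of 11 were tested, with a median log2 fold change of 0.00 that ranged from -0.12 to 0.16 over the alternatives. The gene with the lowest fold change of all members was Psmd6 (Rpn7), a subunit of the lid, on chromosome 14 from 14112174 to 14120984. Psmd6 had 5.14, 3.53 and 3.33 FPKM in control 1, 2 and 3 and 1.96, 1.89 and 2.3 FPKM in pre-AML 1, 2 and 3, from 169, 139 and 111 reads in the controls and 73, 80 and 150 reads in pre-AML. All 3 pre-AML libraries were below all controls, as for 12.8% of all tested genes. This also held on the TPM scale and per recovered read, where 7.91% and 9.77% of all tested genes showed it. In FPKM as deposited pre-AML 3 was close to pre-AML 1 and 2, while both other scales place it higher relative to them. For Psmd6 the log2 fold change was -0.70 (SE 0.17, 95% interval -1.10 to -0.30, limma-trend, Benjamini-Hochberg adjusted p = 0.522). Without pre-AML 3 it was -0.75 with a Benjamini-Hochberg adjusted limma-trend p of 0.521. Over the alternatives it stayed between -0.91 and -0.54, and the adjusted p between 0.119 and 0.751.

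Psmd7 (Rpn8), the partner of the deubiquitinase Psmd14 (Rpn11), had 0.647, 1.3 and 0.638 FPKM in control 1, 2 and 3 and 1.05, 1.47 and 4.64 FPKM in pre-AML 1, 2 and 3. Pre-AML 3 was above all others, pre-AML 2 was just above the controls and pre-AML 1 was within their range. Its log2 fold change was 0.73 (SE 0.36, limma-trend, Benjamini-Hochberg adjusted p = 0.522) and 0.29 without pre-AML 3. Psmd14 itself had 4.89, 3.98 and 4.59 FPKM in control 1, 2 and 3 and 5.22, 4.04 and 5.65 FPKM in pre-AML 1, 2 and 3, with overlapping groups and a log2 fold change of 0.12 (95% interval -0.24 to 0.47). Psmd4 (Rpn10), the ubiquitin receptor with the highest level of all members, had 45.1, 34.8 and 45.4 FPKM in control 1, 2 and 3 and 44.8, 40.9 and 39.5 FPKM in pre-AML 1, 2 and 3. The groups overlapped, and the log2 fold change of Psmd4 was 0.01 (interval -0.34 to 0.35).

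Psmd11 (Rpn6), a lid subunit that reaches down to the core, was below the controls in every pre-AML library, with 23.4, 23.2 and 24.6 FPKM in control 1, 2 and 3 and 22.3, 21.9 and 17 FPKM in pre-AML 1, 2 and 3. Pre-AML 1 and 2 lay close to the lowest control and pre-AML 3 lay farther below. This pattern held for 12.8% of all tested genes and, for Psmd11, was lost on the TPM scale. Its log2 fold change was -0.22 (95% interval -0.55 to 0.11) and was -0.10 without pre-AML 3, and a near-identical transcribed copy makes its read assignment uncertain. Psmd1, Psmd2, Psmd8 and Psmd13 had log2 fold changes between -0.16 and 0.16 and overlapping groups. Psmd12 (Rpn5), the lowest in this class over all libraries, had 0.772, 0.51 and 0.857 FPKM in control 1, 2 and 3 and 0.482, 0.601 and 0.922 FPKM in pre-AML 1, 2 and 3, and Psmd3 (Rpn3) had 0.583, 0.973 and 0.186 FPKM in control 1, 2 and 3 and 0.696, 0.761 and 1.59 FPKM in pre-AML 1, 2 and 3. Both were under the filter and untested, and Psmd3 was highest in pre-AML 3 and lowest in control 3.

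The PA28 activators open the 20S gate without ubiquitin, and PA28 alpha and beta are known as targets of interferon gamma. Unlike the immunoproteasome subunits, Psme1 (PA28 alpha) was abundant, with 29.3, 25.1 and 24.4 FPKM in control 1, 2 and 3 and 28.2, 24.8 and 24.6 FPKM in pre-AML 1, 2 and 3. Psme2 (PA28 beta) had 7.53, 5.88 and 5.05 FPKM in control 1, 2 and 3 and 4.81, 4.36 and 9.28 FPKM in pre-AML 1, 2 and 3. The groups overlapped for both, and Psme2 was highest in pre-AML 3 and lowest in pre-AML 2. The log2 fold change of Psme1 was -0.02 (95% interval -0.34 to 0.29) and that of Psme2 was -0.05 (-0.64 to 0.54), and both signs turned under rescaling and when single libraries were left out. Psme2b is 99.4% identical to Psme2 over 794 aligned bases, so reads of this pair may be exchanged, and Psme2b had a log2 fold change of 0.13 with overlapping groups. Psme3 (PA28 gamma), the nuclear form, had 0.664, 0.602 and 0.741 FPKM in control 1, 2 and 3 and 0.739, 1.12 and 0.523 FPKM in pre-AML 1, 2 and 3. It was under the filter and untested, with pre-AML 2 highest and pre-AML 3 lowest.

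Psme4 (PA200), an activator linked to histone turnover, had 1.72, 0.865 and 1.47 FPKM in control 1, 2 and 3 and 1.19, 1.0 and 0.655 FPKM in pre-AML 1, 2 and 3. The groups overlapped and pre-AML 3 was lowest, with a log2 fold change of -0.26 (SE 0.22, 95% interval -0.76 to 0.23). Psmf1 (PI31), known as a proteasome inhibitor and transport adaptor, had 1.28, 1.95 and 1.74 FPKM in control 1, 2 and 3 and 1.79, 1.79 and 1.93 FPKM in pre-AML 1, 2 and 3. Its groups overlapped, with a log2 fold change of 0.10 (-0.28 to 0.48). The median over the 5 tested activators and inhibitor was -0.02 and ranged from -0.07 to 0.15 over the alternatives.

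Assembly chaperones build the rings of the core and the base of the 19S particle and leave the finished complex. Psmd10 (gankyrin), the most abundant, had 7.02, 9.05 and 8.52 FPKM in control 1, 2 and 3 and 6.4, 9.02 and 5.43 FPKM in pre-AML 1, 2 and 3. The groups overlapped, and its log2 fold change was -0.23 (95% interval -0.66 to 0.20). Psmd9 (p27), Psmg2 (PAC2) and Psmg4 (PAC4) lay between -0.23 and 0.15 with overlapping groups, and the median of the 4 tested chaperones was -0.06, with a range of -0.11 to 0.12 over the alternatives. Psmd5 (S5b), the lowest in the mean over all 6 libraries, had 0.514, 0.302 and 0.439 FPKM in control 1, 2 and 3 and 0.343, 0.444 and 0.518 FPKM in pre-AML 1, 2 and 3. Of the untested chaperones, Psmg1 (PAC1) had 0.444, 0.423 and 0 FPKM in control 1, 2 and 3 and 0.224, 0.345 and 1.21 FPKM in pre-AML 1, 2 and 3, and Psmg3 (PAC3), the partner of Psmg4 in ring assembly, had 0.0965, 0.241 and 0.0952 FPKM in control 1, 2 and 3 and 0.17, 0.15 and 1.94 FPKM in pre-AML 1, 2 and 3. Pre-AML 3 was highest for both, at 4.22 times the mean of the other 5 libraries for Psmg1 and 12.9 times for Psmg3.

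The 2 genes that share only the symbol were a meiotic recombination factor and a nuclear protein. Psmc3ip (Hop2), the former, was listed at 0 FPKM in the controls and had 0.165, 0.0365 and 0.236 FPKM, or 4, 1 and 10 reads, in pre-AML 1, 2 and 3, and was untested. Psme3ip1, which binds PA28 gamma, had 2.42, 2.45 and 3.28 FPKM in control 1, 2 and 3 and 2.77, 2.94 and 2.92 FPKM in pre-AML 1, 2 and 3. Its groups overlapped, with a log2 fold change of 0.07 (95% interval -0.27 to 0.41).

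Pre-AML 3 departed from the other libraries most for members of low level. Of the 20 members with a mean of 0.5 to 3 FPKM over the other 5 libraries, 10 were over 1.5 times that mean in pre-AML 3, where 21.7% of all 2775 genes in that band were. They were Psmb8, Psmd7, Psmb10, Psmb3, Psmc1, Psma1, Psmc2, Psmg4, Psma4 and, with 2.48 times the mean, Psmd3. Of the 24 members at 3 FPKM or more, 2 were (Psme2 and Psma7), against 4.1% of all 2710 genes. By the same measure, each other library had 0 to 3 members over 1.5 times the mean of its other 5 libraries in the low band. In the other direction, control 3 had 11 of 23 low-band members more than 1.5-fold below that mean, against 27.3% of all genes. For pre-AML 3 this was 1 of 20, against 19.5%. In pre-AML 3 Psmb8 was the farthest above in the low band at 6.21 times, followed by Psmd7 at 4.54 times and Psmb10 at 3.92 times. The comparison of pre-AML 3 was chosen after its values were seen. Leukocyte markers, GC content and the scaling of the library moved with it as given above, and their part was not tested.

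**Figure D4:**
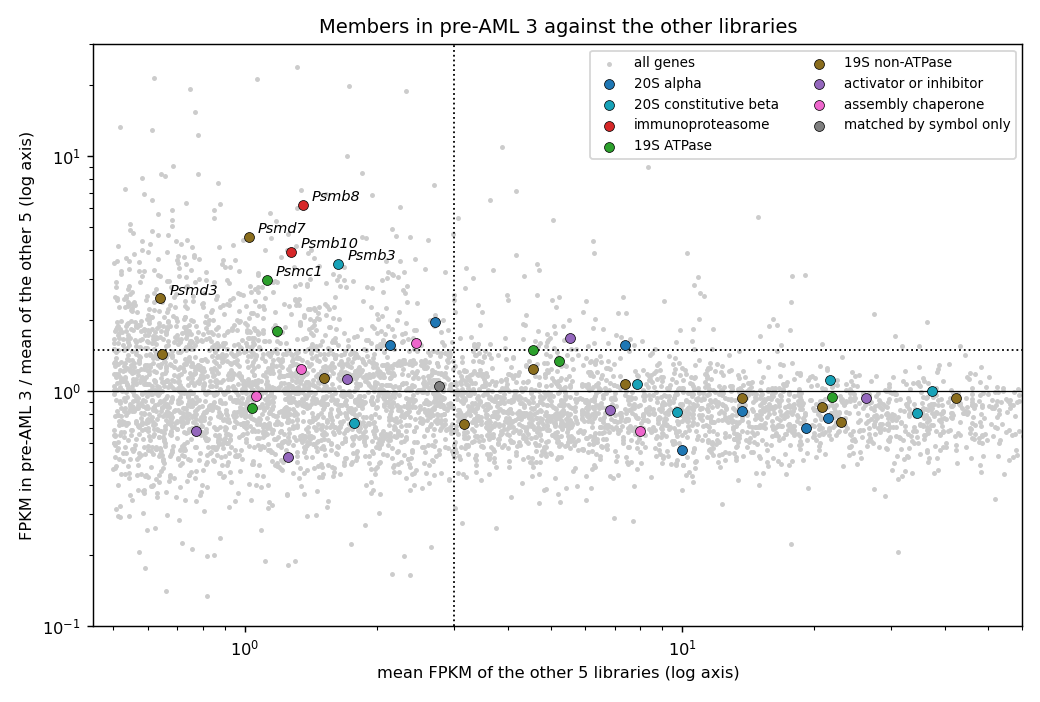
FPKM in pre-AML 3 divided by the mean of the other 5 libraries (log axis) against that mean (log axis) for members from 0.5 FPKM, colored by class, over all genes in grey, with dotted lines at 1.5 times and 3 FPKM. Over the line at 1.5 lie 2 of the 24 members at 3 FPKM or more and 10 of the 20 members at 0.5 to 3 FPKM, led by Psmb8 at 6.21.

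Genes around the proteasome were taken from lists of known function. Of 20 proteasome-associated factors, 17 were in the table and 9 were tested, with a median log2 fold change of -0.22. None passed the adjusted threshold in limma-trend, and at an unadjusted p under 0.05 0 were higher and 2 were lower, where 6.53% of all tested genes were lower. Zfand5, which stimulates proteasomes in muscle wasting, had 6.1, 5.67 and 7.0 FPKM in control 1, 2 and 3 and 4.64, 4.25 and 3.16 FPKM in pre-AML 1, 2 and 3. Akirin2, which carries proteasomes into the nucleus, had 6.62, 7.68 and 6.09 FPKM in control 1, 2 and 3 and 4.83, 4.96 and 2.63 FPKM in pre-AML 1, 2 and 3. Pre-AML libraries were below all controls for both genes, as for 12.8% of all tested genes, with log2 fold changes of -0.54 and -0.63 (limma-trend, Benjamini-Hochberg adjusted p = 0.522 for both). Ubqln2, a shuttle for ubiquitin conjugates, had a log2 fold change of -0.23. Zfand5 and Akirin2 had -0.41 and -0.40 without pre-AML 3. Sem1, the smallest 19S subunit, which the symbol rule does not match, had 83.5, 67.8 and 62.2 FPKM in control 1, 2 and 3 and 74.9, 67.1 and 65.2 FPKM in pre-AML 1, 2 and 3, and the ubiquitin receptor Adrm1 (Rpn13) had 0.312, 0.223 and 0.198 FPKM in control 1, 2 and 3 and 0.491, 0.312 and 0.985 FPKM in pre-AML 1, 2 and 3. The groups overlapped for Sem1. For the untested Adrm1, pre-AML 2 and the highest control had the same value as printed, and pre-AML 1 and 3 were higher. The 20S assembly factor Pomp had 19.4, 13.3 and 14.6 FPKM in control 1, 2 and 3 and 15.5, 13 and 11.5 FPKM in pre-AML 1, 2 and 3, with a log2 fold change of -0.22.

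Of the 9 regulators of subunit transcription, 5 were tested and 0 had an unadjusted p under 0.05 in limma-trend, with a median of 0.04. Nfe2l1 (NRF1), which drives subunit genes when proteasomes are inhibited, had 1.41, 1.32 and 1.07 FPKM in control 1, 2 and 3 and 2.49, 1.33 and 1.95 FPKM in pre-AML 1, 2 and 3, overlapping groups and a log2 fold change of 0.35 (SE 0.20). Nfe2l2 (NRF2) and Ngly1, which processes NRF1, had log2 fold changes of -0.13 and -0.14. In the list of ubiquitin genes, E1 enzymes and p97 partners, 9 of 13 were tested and 0 had an unadjusted p under 0.05, with a median of 0.01. Of those with the smallest unadjusted p, the E1 enzyme Uba1 had a log2 fold change of -0.29 and Rps27a, which encodes ubiquitin fused to a ribosomal protein, one of 0.80, with 10.1 FPKM in pre-AML 3 against 0.724 to 3.53 FPKM elsewhere. Without pre-AML 3 these values were -0.13 for Uba1 and 0.22 for Rps27a.

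Regulators of the immunoproteasome and class I peptide-loading genes had fold changes on either side of 0. Of 19 genes 13 were tested, with a median log2 fold change of -0.03, and 0 passed the adjusted threshold in limma-trend. B2m and Pdia3, the light chain of class I and a chaperone of its loading complex, had log2 fold changes of -0.45 each, and of -0.20 and -0.61 without pre-AML 3. The peptide transporter genes, neighbours of Psmb8 and Psmb9 in the MHC region, were chosen after their values were seen. Tap1 had 0.264, 0.35 and 0.107 FPKM in control 1, 2 and 3 and 0.206, 0.412 and 1.86 FPKM in pre-AML 1, 2 and 3 and was untested, and Tap2 had 0.586, 0.564 and 0.467 FPKM in control 1, 2 and 3 and 0.636, 0.806 and 2.95 FPKM in pre-AML 1, 2 and 3. Pre-AML 3 was the highest library for both. Pre-AML 1 lay within the control range for Tap1. All pre-AML libraries were above the controls for Tap2, as for 6.14% of all tested genes. Tap2 reached the filter mean of 1 FPKM only through pre-AML 3. Its log2 fold change of 0.56 (SE 0.33) was 0.16 without that library.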

How the data were processed

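Platelet polyA RNA was made into cDNA with SMART-Seq2 and into libraries with Nextera XT, and the authors mapped reads to mm10 with STAR and tested with DESeq2. The counting program and annotation are not given in the sources used here. The authors deposited FPKM values for 14975 genes and 6 libraries. Gene lengths (union of exons) and coordinates were taken from GENCODE M21 on GRCm38. FPKM times length and library size gave whole reads, within 0.05, for 83.0% of values above 0, and for 43 of 50 members in all 6 libraries. Recovered reads are estimates.

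FPKM are not counts, so limma-trend (limma 3.58.1, R 4.3.3) was fitted to log2(FPKM + 1) for AML against WT, two-sided and with no covariate. Genes averaging 1 FPKM or more entered, and p-values were adjusted after Benjamini and Hochberg (threshold 0.05). Tables were made with Python 3.11.15. The fit was also run on simulated data without an outlying library such as pre-AML 3, so that run does not measure its power here. Of the members, all may be named. Values in each library are given for the immunoproteasome subunits and their counterparts, Psme1 to Psme3, the highest and lowest member of each class, the 5 highest and 5 lowest fold changes and members with an unadjusted p under 0.05, and in list genes for some of the 3 with the smallest p, while 2 list genes are not reported here. Others with values in each library (Psmd14, Psmd3, Psmf1, Psmg1, Psmg3, Psme3ip1, Psmc3ip, Sem1, Adrm1, Pomp, Tap1, Tap2, Tyrobp, Cd74) were added. Members, lists and motifs were chosen with earlier results of these data known. Genes with a copy of at least 95% identity over at least 50% of the transcript (9 members) are uncertain. Alternatives are given in the closing section.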

Additional observations from a re-analysis of the deposited data

How the results depend on the processing

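In limma-trend and in each of 15 alternatives, 3 of them chosen after seeing the data (FPKM rescaled to recovered reads, limma-voom on recovered reads, and GC content and length trends removed), 0 members passed the adjusted threshold. The count of all tested genes called higher, 1 in the reported analysis, was 0 with no filter on low values, on the TPM scale, rescaled to recovered reads and with limma-voom, 2 with array weights, and 0 to 2 when single libraries were left out (0 without control 1 or control 3, 2 without pre-AML 3). The TPM scale moved the median log2 fold change of all tested genes from -0.06 to 0.09 and the rescaling to recovered reads moved it to 0.05, so signs of small changes depend on the scale. The median of the constitutive beta subunits was 0.061 on the TPM scale and 0.024 rescaled. That of the 19S non-ATPase subunits was 0.16 and 0.12, and -0.12 to 0.064 without single libraries. That of the alpha subunits was 0.024 on the TPM scale and 0.11 with GC content and length trends removed. The median of the tested immunoproteasome subunits was 1.61 with limma-voom, whose scale has no pseudocount of 1, and 0.46 to 1.27 without single libraries, lowest without pre-AML 3. The median of the 19S ATPases was -0.12 without pre-AML 3. The difference of the log2 ratio of Psmb9 to Psmb6, 0.55 with a pseudocount of 1, was 1.22 with 0.1 and 0.28 to 0.76 without single libraries. The log2 fold change of Psme1 was 0.15 on the TPM scale, 0.077 after quantile normalization and 0.11 rescaled, and -0.082 to 0.057 without single libraries, above 0 without control 1, pre-AML 2 or pre-AML 3. That of Psme2 was 0.11, 0.016 and 0.071 under the same scalings, and -0.34 to 0.13 without single libraries, above 0 without control 1, pre-AML 1 or pre-AML 2. That of Psmb3 was -0.076 with array weights and -0.046 to 0.70 without single libraries, lowest without pre-AML 3. The cause of these changes was not tested. Directions of Psmb8, Psmb10, Psmd6, Psmd7, Psma5, Psma6, Psmb1, Psmc2 and Psme4 were kept under all 15 alternatives. Libraries share replicate numbers, but same-numbered libraries did not deviate together (correlations -0.04, -0.12 and -0.17, with no library correlating best with its own number), and with the number as a replicate block 1 gene was called higher and 0 members were called. Depth limits the low members, since Psmb9 rested on 5 reads in control 3 and 3 reads on 1 kb correspond to up to 0.256 FPKM.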
